A study of Homo sapiens with 8 samples.

Results

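LNCOC1 is the antisense long non-coding RNA that overlaps LY6K on chromosome 8q24.3, and it is described here with 7 protein-coding genes of the same stretch: LY6K, THEM6, LYPD2, LYNX1, LY6D, PSCA and LY6E. The 8 members were chosen by symbol and position, as the genes whose Ensembl identifiers GENCODE release 29 maps to these names, and all 8 were found among the 66206 genes of each deposited table. The study sequenced RNA from A549, an established human lung adenocarcinoma cell line, after depletion of an RNA that the labels call LY6K-AS, or of YWHAG, a 14-3-3 adapter protein. LNCOC1 is taken as LY6K-AS from its position antisense to LY6K. No gapmer sequence was at hand to check this. There were 8 libraries in 4 groups of 2, all transfected with RNAiMAX: a scramble LNA gapmer at 25 pmol, LNA gapmers against LY6K-AS at 25 pmol, a scramble siRNA at 40 pmol and siRNAs against YWHAG at 40 pmol. An LNA gapmer is an antisense oligonucleotide that recruits RNase H to cut the RNA it pairs with. The knockdown libraries are titled LNA1 and LNA3, and si1 and si2, so each may carry its own oligonucleotide, and all come from 1 cell line. The labels do not say that replicates are separate cultures, so p-values reflect the spread among these libraries alone, which may be technical. In such bulk RNA, fewer cells that express a gene and less RNA per cell cannot be told apart.

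LY6 proteins are small and cysteine-rich, share the three-finger fold of the urokinase receptor, and mostly sit on the cell surface through a glycosylphosphatidylinositol (GPI) anchor. Among normal tissues LY6K is largely restricted to testis, and it is expressed in several carcinomas. An antisense RNA is made from the opposite strand of a gene it overlaps, so part of its sequence is complementary to that gene's transcript.

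The members lie within 353.5 kb of hg38 chromosome 8. LNCOC1 (ENSG00000253741.1) spans 142702252 to 142726973 on the minus strand, and LY6K (ENSG00000160886.13) spans 142700111 to 142705127 on the plus strand. They overlap over 2876 bases that are exonic in both, which is 71.0% of the exon bases of LY6K and 50.6% of those of LNCOC1. The start site of THEM6 (ENSG00000130193.7, 142727203 to 142736927, plus) lies 230 bases from that of LNCOC1 and points the other way. LYPD2 (ENSG00000197353.3, 142750150 to 142752534, minus), LYNX1 (142771197 to 142777810, minus) and LY6D (ENSG00000167656.4, 142784880 to 142786592, minus) follow on the side of THEM6. PSCA (ENSG00000167653.4, 142670308 to 142682724, plus) lies on the side of LY6K, and LY6E (ENSG00000160932.10, 143017982 to 143023832, plus) is the farthest, with its start 291009 bases from that of LNCOC1. No source used here says whether counting took account of strand, so reads from the 2876 shared bases may count for LNCOC1, for LY6K, for both or for neither. Opposite-strand exons also overlap by 368 bases between PSCA and JRK, by 340 between THEM6 and AC108002.1, by 216 between LY6D and AC083841.2 and by 88 between LY6E and LY6E-DT. Over whole gene spans JRK overlaps 11661 of the 12417 bases of PSCA, and AC083841.2 overlaps 1219 of the 1713 bases of LY6D. It is not known whether LNA reads were counted over exons alone, so reads of these pairs may also be shared outside exons.

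**Figure D1:**
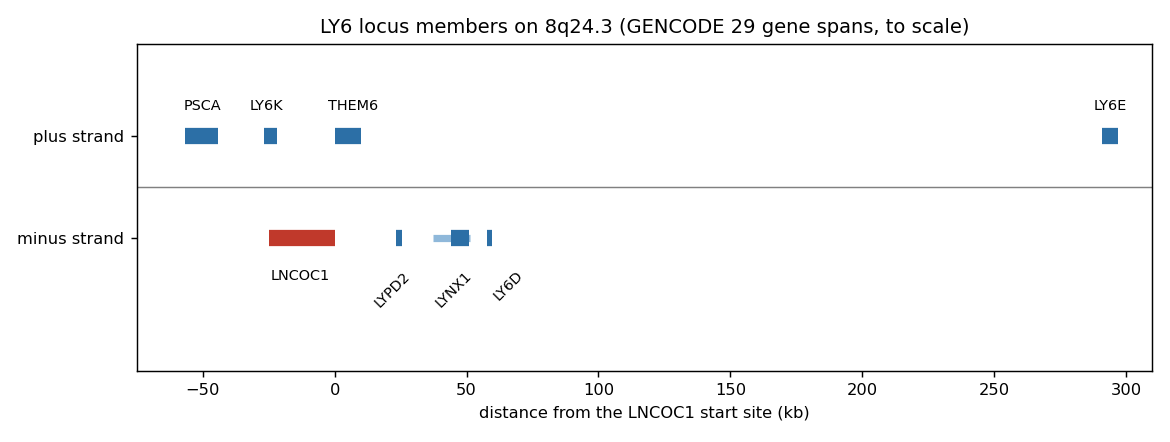
Gene spans of the 8 members on the plus and minus strands, drawn to scale against the distance in kb from the LNCOC1 start site. LNCOC1 (red) overlaps LY6K and starts 230 bases from THEM6, and the pale bar is the longer stretch that the deposited LYNX1 value covers.

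The values are RPKM, reads scaled to gene length and to library total, and whole reads could be recovered from them. The library totals behind the RPKM were 26179563 to 33968088 reads in the 4 LNA libraries and 33737727 to 34560192 in the 4 siRNA libraries. A level of 3 reads, used here as a rough limit for a count of 0, corresponds to 0.0868 to 0.115 RPM (reads scaled to a library total of 1000000). The exact 95% interval of a count of 0 reaches higher, to 0.141 RPM for LYPD2 in the first LY6K-AS knockdown library. The 2 tables were normalized separately, so each knockdown is compared with its own controls, and the siRNA controls are named 2 and 3 as in their table. Epithelial keratin and adhesion markers were present in both tables, with 7 of 8 and 6 of 8 at a mean RPKM of at least 0.5. Their summed level was 1277 to 1287 RPKM in the LNA controls and 1508 to 1526 after LY6K-AS knockdown, and 853 to 939.7 in the siRNA controls and 1167 to 1222 after YWHAG knockdown. Of 6 immune markers 2 reached that level (CD14 and ITGAM), of 6 fibroblast markers 1 (COL1A1) and of 6 endothelial markers 0. Immune markers summed to 3.31 to 3.63 RPKM in the LNA controls and 4.22 to 5.76 after knockdown, with PTPRC and CD3E at 0. In the siRNA table they summed to 3.15 to 3.85 RPKM in the controls and 0.846 to 2.06 after YWHAG knockdown. At an unadjusted p under 0.05 (limma), CD14, ITGAM and COL1A1 were lower there. Of 6 epithelial markers tested there, 3 were higher and 1 lower, and of all genes tested 7.51% were higher and 8.9% lower. After LY6K-AS knockdown 1 of 7 epithelial markers and 1 of 2 immune markers tested (ITGAM) were higher and 0 lower, beside 13.6% and 11.7% of all genes. The part of these markers in the results below was not tested.

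LNCOC1, taken as the target of the gapmers, was counted 34 and 17 times in the LNA controls against 3 and 8 times in the LY6K-AS knockdown libraries. Both knockdown libraries lay below both controls, at 0.115 and 0.259 RPM against 1.00 and 0.557 RPM. The ratio of knockdown to control was 0.244, with a 95% interval of 0.115 to 0.474 that covers counting error only, and it was 0.145 in the first knockdown library and 0.328 in the second. Per exon length LNCOC1 stood at 0.137 ± 0.0553 RPKM in the controls and 0.0329 ± 0.0180 RPKM after knockdown (SD, n = 2 each), under the minimum of 0.5 RPKM for the test across genes. A fit without that minimum gave a log2 change of −0.14 ± 0.05 (SE) on the log2(RPKM + 1) scale with adjusted p = 0.336 (limma), a scale on which low genes move little. On the recovered reads the log2 change was −2.0 ± 0.56 (SE) with adjusted p = 0.136 (limma voom), so neither fit passed the threshold. LNCOC1 was thus low in every library.

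LY6K, a GPI-anchored protein, was higher where LNCOC1 was lower. LY6K held 35 and 42 reads with the scramble gapmer and 53 and 55 reads after LY6K-AS knockdown, or 1.03 and 1.38 RPM against 2.02 and 1.78 RPM. The groups did not overlap. The ratio was 1.59 with a counting interval of 1.17 to 2.15, and 1.70 and 1.49 in the 2 knockdown libraries. In the fit without a minimum the log2 change was 0.18 ± 0.09 (SE) with adjusted p = 0.487 (limma), so the difference did not pass the test.

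The sum of the 2 overlapping genes moved far less than its split. LNCOC1 and LY6K together gave 2.03 and 1.93 RPM in the LNA controls and 2.14 and 2.04 RPM after LY6K-AS knockdown. LNCOC1 took 49.3% (exact binomial 95% interval 37.0 to 61.6%) and 28.8% (17.8 to 42.1%) of these reads in the controls, and 5.4% (1.1 to 14.9%) and 12.7% (5.6 to 23.5%) in the knockdown libraries. The summed level stayed within the counting interval of each library while the share of LNCOC1 was lower in both knockdown libraries, although the intervals of the second control and the second knockdown library overlap.

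The siRNA libraries, in which LNCOC1 was not targeted, showed a split that varied as widely. LNCOC1 held 35 and 30 reads in the siRNA controls and 14 and 42 in the YWHAG knockdown libraries, where LY6K held 11 and 18 reads and 23 and 4 reads. The sum was 1.33 and 1.39 RPM in the controls and 1.07 and 1.36 RPM after knockdown, while LNCOC1 took 76.1% and 62.5% of it in the controls, and 37.8% (22.5 to 55.2%) and 91.3% (79.2 to 97.6%) in the 2 YWHAG knockdown libraries. Those intervals lie far apart, so 2 libraries of 1 group differed in this split by more than counting error. Within each table the order of the 4 libraries on LNCOC1 was the reverse of their order on LY6K. Whether the assignment of reads from the shared exon bases moved with this was not tested.

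**Figure D2:**
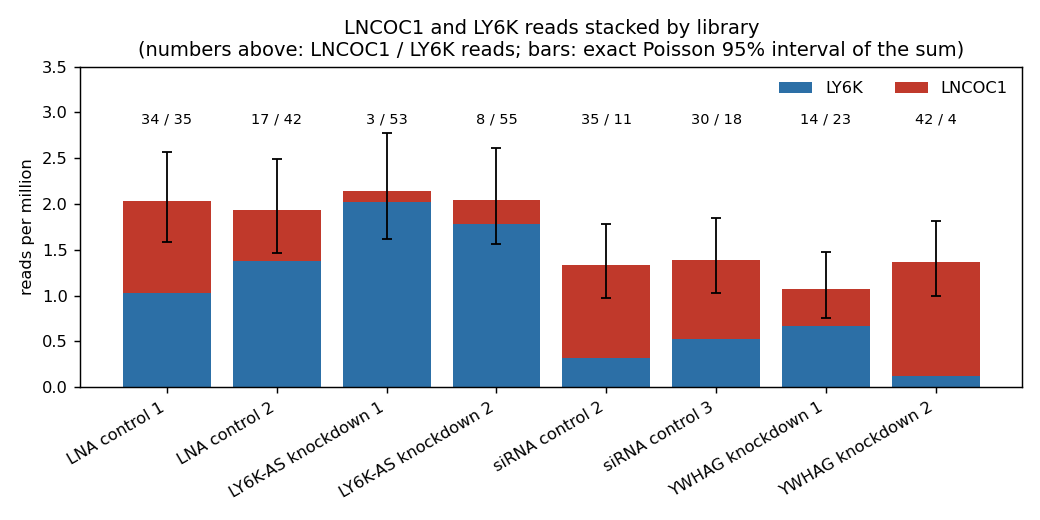
RPM of LY6K (blue) and LNCOC1 (red) stacked for each of the 8 libraries, with the exact Poisson 95% interval of the sum and the reads of each gene above. Within a table the sums lie inside each other's intervals, from 1.93 to 2.14 in the LNA libraries and from 1.07 to 1.39 in the siRNA libraries, while the split between the genes differs.

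THEM6, a thioesterase superfamily member whose start site faces that of LNCOC1, was with LY6E one of the best covered members. Control libraries held 1435 and 1433 THEM6 reads, against 1610 and 1705 after LY6K-AS knockdown, or 13.8 and 15.4 RPKM against 20.1 and 18.1 RPKM per kilobase of exon. Both knockdown libraries lay above both controls, at means of 14.6 ± 1.08 and 19.1 ± 1.46 RPKM (SD, n = 2 each). The log2 change was 0.37 ± 0.11 (SE), with adjusted p = 0.149 (limma), which did not pass the test. After YWHAG knockdown THEM6 stood at 11.0 and 7.47 RPKM against 6.35 and 7.37 RPKM, a log2 change of 0.36 ± 0.21 with adjusted p = 0.439 (limma). There the second knockdown library was level with the higher control. The log2 changes in the 2 knockdowns differed by 0.00 ± 0.26 (adjusted p = 0.994, limma).

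LYNX1 showed the largest change of the 8 members on the log2(RPKM + 1) scale after LY6K-AS knockdown, whereas with voom on the recovered reads LY6D (1.79) and LNCOC1 were farther from 0 than LYNX1 (1.33). LYNX1 is a GPI-anchored modulator of nicotinic acetylcholine receptors. Its reads numbered 327 and 333 with the scramble gapmer and 644 and 862 after knockdown, or 1.59 and 1.81 RPKM against 4.07 and 4.62 RPKM. Both knockdown libraries lay above both controls, with ratios of 2.41 and 2.73 and a pooled ratio of 2.58 (counting interval 2.35 to 2.83). The log2 change was 0.99 ± 0.11 (SE), with unadjusted p = 0.000628 and adjusted p = 0.103 (limma), so it did not pass the threshold of 0.05 over all genes. No gene of the LNA table had a smaller adjusted p in this fit. After YWHAG knockdown LYNX1 held 81 and 67 reads against 76 and 67 in the siRNA controls, at a ratio of 1.05 with a counting interval of 0.825 to 1.32, and the groups overlapped. The difference between the 2 knockdowns was 0.97 ± 0.15 on the log2 scale with adjusted p = 0.0909 (limma, no minimum), which did not pass either.

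The LYNX1 value is not that of LYNX1 alone. The lengths recovered from the values, 13890 and 6039 bases in the 2 tables, are those of the joined stretch of LYNX1, SLURP2 and their readthrough gene, from 142764334 to 142778224, and neither SLURP2 nor the readthrough gene has a value of its own. SLURP2 is a secreted LY6 protein, so the reads of the 2 genes cannot be told apart here.

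LY6E, an interferon-inducible GPI-anchored protein, was higher in both knockdowns. Its 661 and 614 control reads compare with 712 and 1042 after LY6K-AS knockdown, or 7.37 and 7.61 RPKM against 10.3 and 12.8 RPKM. Its level in the siRNA table was 11.7 and 11.0 RPKM in the controls and 15.4 and 14.6 RPKM after YWHAG knockdown. In neither table did the groups overlap. The log2 change was 0.56 ± 0.13 (SE) with adjusted p = 0.119 after LY6K-AS knockdown and 0.37 ± 0.13 with adjusted p = 0.278 after YWHAG knockdown (limma), and their difference was 0.18 ± 0.18 with adjusted p = 0.595. LY6E and THEM6 were the members with all 4 knockdown libraries above their own controls, which 6.38% of the 12861 genes tested in both tables also showed.

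PSCA, a GPI-anchored surface antigen of prostate and other epithelia, was read 38 and 69 times after LY6K-AS knockdown, against 35 and 27 times with the scramble gapmer. At 0.823 and 1.27 RPKM against 0.584 and 0.501 RPKM the groups did not overlap, and the ratio was 1.95 (counting interval 1.41 to 2.71), 1.51 in the first knockdown library and 2.33 in the second. The log2 change was 0.40 ± 0.15 (SE) with adjusted p = 0.195 (limma). In the siRNA table PSCA held 9 and 8 reads in the controls and 16 and 3 after knockdown, so the 2 YWHAG knockdown libraries lay on either side of the controls.

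LY6D, a marker of stratified epithelium and of early B lineage cells, held 4 and 2 reads with the scramble gapmer and 10 and 10 after LY6K-AS knockdown, a ratio of 3.77 with a counting interval of 1.46 to 11.5. In the siRNA table it held 1 and 3 reads in the controls and 0 in both YWHAG knockdown libraries, at or under the 3-read limit, so no fold is given. LYPD2, another family member, held 3 reads in the second LY6K-AS knockdown library, 1 read in siRNA control 2 and 0 in the other 6 libraries. At this depth no difference in LYPD2 was detectable.

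**Figure D3:**
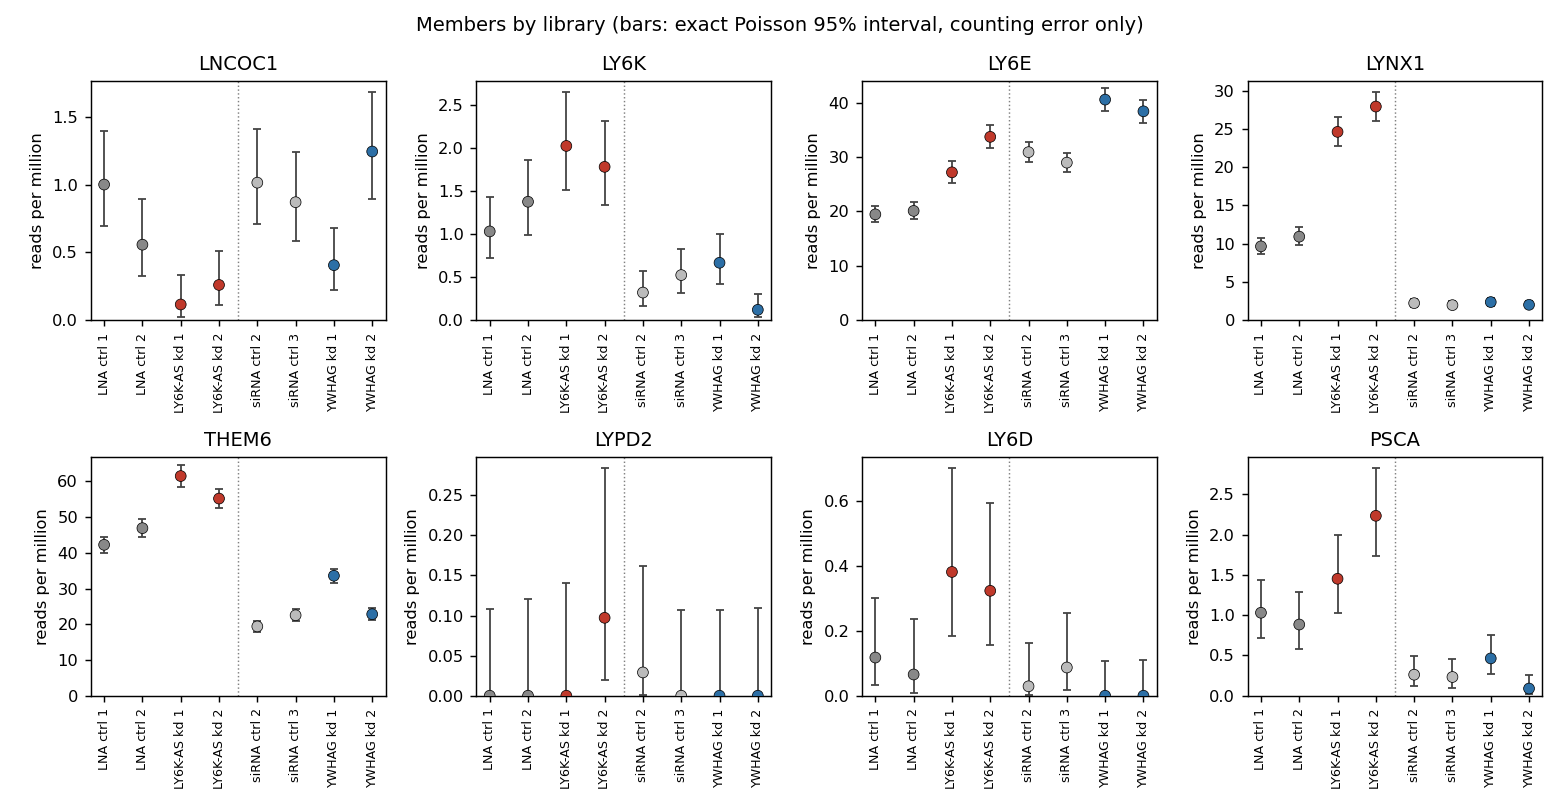
RPM of each member in each library, 1 panel a member on its own linear axis from 0, with exact Poisson 95% intervals (grey controls, red LY6K-AS and blue YWHAG knockdown, the tables parted by a dotted line). After LY6K-AS knockdown LNCOC1 lies below both controls and LY6K, LY6E, LYNX1, THEM6, LY6D and PSCA above them, whereas in the siRNA table LY6E and THEM6 lie above.

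Counted over all 8 members, 6 lay above both controls after LY6K-AS knockdown, 1 below (LNCOC1) and 1 overlapped (LYPD2). Over all genes with a value, 23.2% lay above both controls and 19.3% below, and over genes past the minimum for the test 31.4% and 30.5%. After YWHAG knockdown 2 of 8 lay above (LY6E and THEM6), against 16.1% of all genes, and 1 of 8 below (LY6D), against 22.1%, the shares past the minimum being 20.4% and 30.8%. The median log2 change over the 8 members was 0.29 after LY6K-AS knockdown and 0.00 after YWHAG knockdown, beside medians over all genes with a value of 0.0067 and −0.0038, so the siRNA median was level with that of all genes. A minimum of 0.5 RPKM in at least 2 libraries was passed by 4 members in the LNA table (LYNX1, LY6E, THEM6 and PSCA) and by 2 in the siRNA table (LY6E and THEM6). None of the 8 had an adjusted p under 0.05 in either comparison, nor did any gene of 14662 (0.0%) in the LNA table or of 13903 (0.0%) in the siRNA table (limma). At an unadjusted p under 0.05, all 4 members tested in the LNA table were higher, where 13.6% of all genes tested were higher and 11.7% lower, and LY6E alone was higher in the siRNA table, where the shares were 7.51% and 8.9%. With the GC trend removed LYNX1 alone of the 4 in the LNA table kept an unadjusted p under 0.05, at 0.00137, and PSCA (0.497), THEM6 (0.966) and LY6E (0.0573) did not. Of the difference between the knockdowns, 0 of 8 members passed, beside 0.179% of all genes tested and 0.224% with no minimum.

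Members are rich in G and C, and the LNA libraries differed by GC content. Pooled over their annotated transcripts, the 7 protein-coding members hold 54.7 to 65.0% GC and LNCOC1 47.2%. The median over all genes tested in the LNA table was 49.8%. Exons shared by several transcripts count once for each, and the LYNX1 figure leaves out SLURP2. Across 14662 genes of the LNA table, Spearman's rho between GC content and the log2 difference from the control mean was 0.42 in the first and 0.54 in the second LY6K-AS knockdown library, and 0.24 between the 2 controls. These genes share libraries, and the values are descriptions. In the siRNA table the same rho was 0.04 and −0.00 for the YWHAG knockdown libraries and 0.26 between its 2 controls (13755 genes). With each library's GC trend removed, the log2 change after LY6K-AS knockdown was 0.64 for LYNX1, 0.22 for LY6E, 0.09 for PSCA and 0.01 for THEM6. The other members were under the minimum, and their trend was drawn over all 33476 genes with a value. There LY6K stood at 0.14, LY6D at 0.07, LYPD2 at −0.062 and LNCOC1 at −0.12. Before the correction LYNX1 stood at 0.99, THEM6 at 0.37, LY6K at 0.18 and LNCOC1 at −0.14. LYNX1 kept most of its difference and THEM6 almost none. The corrections of LY6K and LNCOC1 come from another trend and are not set beside these. With the values as deposited PSCA stood at 0.09 and LYNX1 at 0.73. The part of GC content in these differences beyond this correction was not tested.

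**Figure D4:**
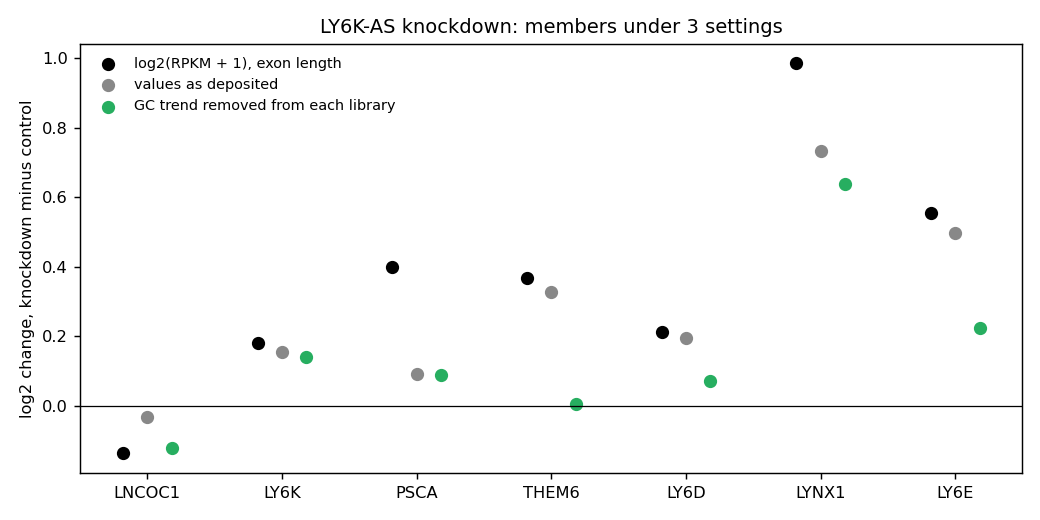
Log2 change, knockdown minus control, of 7 members after LY6K-AS knockdown with values per exon length (black), as deposited (grey) and with the GC trend removed (green). LYNX1 is highest in all 3, and THEM6, LY6E and PSCA are nearer to 0 when the GC trend is removed, at 0.01, 0.22 and 0.09. The green values of LY6K, LNCOC1 and LY6D come from the fit without a minimum.

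Most tested genes around the locus had a positive log2 change after LY6K-AS knockdown, but with the GC trend removed as many were positive as not. Within 1 Mb of the midpoint of LNCOC1, 72 of 75 annotated genes had a value and 24 passed the minimum, of which 21 had a positive log2 change and 19 lay above both controls, beside 31.4% of all genes tested. Their median log2 change was 0.37, and 0.29 over the 20 genes that are not members, 17 of which had a positive change. Those 20 genes have a median GC content of 63.7%. They include MAFA-AS1 and AC105118.1, which passed the minimum through the knockdown libraries alone. The place of MAFA-AS1 and AC105118.1 above both controls and their positive change therefore followed from the minimum. They are no separate support within these counts and medians. At an unadjusted p under 0.05, 11 of the 24 were higher and 0 lower, beside 13.6% and 11.7% of all genes tested, and 0 passed at an adjusted p (limma). The 11 also include MAFA-AS1 and AC105118.1, whose direction the minimum had set. With the GC trend removed 12 of the 24, and 8 of the 20 that are not members, had a positive change, and the medians were 0.00 and −0.01. In that fit 4 of the 24 were higher and 2 lower at an unadjusted p under 0.05 (limma), beside 1349 and 1495 of all 14662 genes. Of 19 tested after YWHAG knockdown 9 had a positive log2 change, 6 lay above both controls, where 20.4% of all genes tested did, and the median was −0.03.

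The genes of the window with the smallest p after LY6K-AS knockdown were LYNX1, MAFA-AS1, AC105118.1, RHPN1 and LY6E. MAFA-AS1, antisense to a beta-cell transcription factor gene, stood at 0.212 and 0.314 RPKM against 1.10 and 1.24 RPKM after knockdown (log2 change 0.78 ± 0.11, SE, adjusted p = 0.103, limma). RHPN1 stood at 19.4 and 20.6 RPKM against 29.2 and 34.9 RPKM (0.65 ± 0.12, adjusted p = 0.105, limma). AC105118.1 stood at 0.108 and 0.181 RPKM against 0.983 and 0.774 RPKM. The RHPN1 groups did not overlap either. Both controls of MAFA-AS1 and of AC105118.1 lay under the minimum of 0.5 RPKM, so these genes passed it through the knockdown libraries alone. That their groups do not overlap and that their change is positive follow from this and are no separate result. Their small p is no support either. After YWHAG knockdown the log2 change of RHPN1 was −0.33. JRK, which overlaps PSCA on the other strand, stood at −0.13 and 0.28 in the 2 knockdowns. EEF1D, a subunit of translation elongation factor 1, had the smallest p of the window there, at 3.13 and 3.53 RPKM against 5.08 and 4.68 RPKM (0.44 ± 0.13, adjusted p = 0.259, limma).

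**Figure D5:**
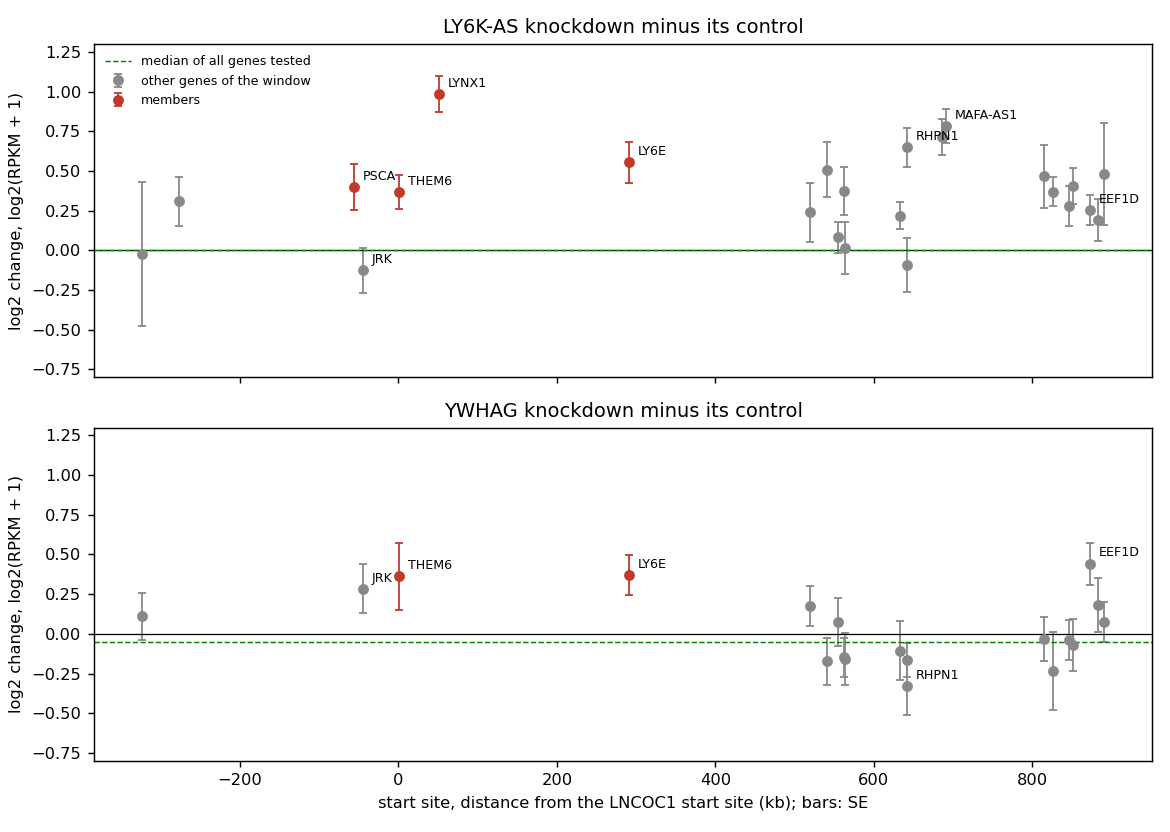
Log2 change of the genes tested within 1 Mb of LNCOC1 against their distance in kb from its start site, for both knockdowns, with members in red, SE as bars and the median of all genes tested as a dashed line. After LY6K-AS knockdown 21 of 24 lie above 0, and after YWHAG knockdown 9 of 19. The 21 include MAFA-AS1 and AC105118.1, which passed the minimum through the knockdown libraries alone.

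The lists of related genes elsewhere were counted in the same way. Of 30 LY6/uPAR family genes outside the locus, 12 were tested in the LNA table, of which 3 were higher and 1 lower at an unadjusted p under 0.05 and 0 at an adjusted p, with a median log2 change of −0.04. The shares over all genes tested there were 13.6% higher and 11.7% lower. PLAUR, the urokinase receptor, stood at 7.01 and 7.67 RPKM against 12.3 and 12.8 RPKM after LY6K-AS knockdown (0.70 ± 0.09, adjusted p = 0.103, limma), and LYPD1, another family member that acts on nicotinic receptors, at 1.75 and 1.83 RPKM against 2.76 and 3.15 RPKM. After YWHAG knockdown 1 of 11 was higher and 2 lower, beside 7.51% and 8.9% of all genes, among them ACVR2B, an activin receptor, at 2.99 and 2.98 RPKM against 1.86 and 0.697 RPKM. ACVR1, a BMP receptor with the same extracellular fold, stood at 6.46 and 5.84 RPKM against 11.1 and 9.04 RPKM. Of the 7 other LY6 genes of the cluster 5 had a value of their own. LY6H, GML, SLURP1 and LY6L held 0 reads in all 8 libraries, and GPIHBP1, the anchor of lipoprotein lipase, held 0 to 5.

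Of 29 genes that make or attach the GPI anchor, 27 were tested in each table. After LY6K-AS knockdown 1 was higher and 2 lower at an unadjusted p under 0.05 (median log2 change 0.02), shares below the 13.6% and 11.7% of all genes, with DPM1, a mannose donor enzyme, at −0.46 and PIGC, of the first step of synthesis, at −0.44. After YWHAG knockdown 1 was higher and 0 lower (median 0.10), beside 7.51% and 8.9% of all genes. PIGS and PIGK of the transamidase stood at 0.58 and 0.37. The 16 nicotinic receptor subunits were mostly below the minimum, with 4 and 2 tested and 0 at an unadjusted p under 0.05 in either direction. The shares over all genes were 13.6% higher and 11.7% lower in the LNA table, and 7.51% and 8.9% in the siRNA table. CHRNB1 stood at 0.24 and CHRNA5 at −0.27 after LY6K-AS knockdown, and at 0.15 and −0.14 after YWHAG knockdown.

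Of 28 interferon-stimulated genes, the class to which LY6E belongs, 14 were tested in the LNA table, with 3 higher and 1 lower at an unadjusted p under 0.05 and a median log2 change of 0.10, beside 13.6% and 11.7% of all genes. ISG15, a ubiquitin-like modifier, stood at 0.56 and OAS1, a sensor of double-stranded RNA, at 0.51. After YWHAG knockdown 16 were tested and 0 passed in either direction, beside 7.51% higher and 8.9% lower of all genes. Their median was 0.13, with ISG20 at 0.32 and USP18, which removes ISG15, at −0.42. Of 6 urokinase system genes 4 were tested after LY6K-AS knockdown. At an unadjusted p under 0.05, 1 was higher and 0 lower, beside 13.6% and 11.7% of all genes. It was SERPINE2, a protease inhibitor, at 0.77. After YWHAG knockdown 3 were tested and 0 passed at an unadjusted p under 0.05 in either direction, beside 7.51% higher and 8.9% lower of all genes. PLAU, the urokinase protease, stood there at 0.64. Its level was 22.6 and 21.6 RPKM with the scramble siRNA and 56.9 and 21.3 RPKM after knockdown, so that value rested on the first library. No gene of these lists had an adjusted p under 0.05.

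YWHAG itself stood at 163 and 158 RPKM with the scramble siRNA, against 13.5 and 4.91 RPKM in the YWHAG knockdown libraries, a log2 change of −4.12 ± 0.43 (SE) with adjusted p = 0.130 (limma). This difference did not pass the adjusted threshold either, although no gene of the siRNA table had a smaller adjusted p in this fit. With 2 libraries a group, a gene that did not pass is therefore not shown to be unchanged.

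Genes most like the LY6 members were sought by Pearson's r over the 8 libraries, each centred within its table. For LY6E the highest r were those of TAP1, a peptide transporter of antigen presentation, at 0.992, DMRTA1, a DM-domain transcription factor, at 0.987 and YBX3, a Y-box nucleic acid-binding protein, at 0.984. For LYNX1 they were MARK4, a microtubule-affinity kinase, at 0.997, USP35, a deubiquitinase, at 0.989 and TBC1D10A, a Rab GTPase activator, at 0.987. For LY6K they were ARHGEF17, a guanine nucleotide exchange factor, at 0.984, FADD, the adapter of death receptors, at 0.982 and DAPK3, a serine/threonine kinase, at 0.978. The genes compared share the same 8 libraries, with their differences in depth and GC trend, and these values only rank genes by likeness.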

How the data were processed

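RNA was sequenced in 8 A549 libraries, and the authors deposited RPKM in 2 tables, 1 for the LNA and 1 for the siRNA libraries. Per the submitters' processing notes the build was hg38 and the tools STAR, featureCounts, Subread and Picard. Strand use and counting parameters are not given in the sources used here. Of 66206 identifiers 57055 matched GENCODE 29, 52238 with the same version, and the other 9151 were left out of the LNA tests. The deposited RPKM were whole multiples of 1 read (tolerance 0.05 reads) for 100% of values when the length was gene end minus start (LNA table) or merged exon length (siRNA table). LNA values were therefore rescaled to merged exon length, and reads recovered. With length so defined, it is not known whether LNA reads were counted over exons alone. Columns were assigned by name, the siRNA controls to their group only.

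Each knockdown was fitted against its own controls with limma 3.58.1 (R 4.3.3) on log2(RPKM + 1), with genes of at least 0.5 RPKM in 2 libraries, intensity trend and Benjamini-Hochberg adjustment. The difference of the knockdowns came from 1 fit over all 8 libraries. Fold values on this scale understate the change of low genes. Read ratios carry 95% intervals for counting error only. Fits were run on simulated data as a check of the code. Of 200 well-read genes given known changes, 96% were called in the LNA setting and 95.5% in the siRNA setting. The spread there was set and not taken from these libraries, so those shares do not measure what the fits can detect here. Alternatives were the pseudocount (0.1 and 0.5), no minimum, TMM scaling with voom, median centring, GC trend removal, the values as deposited, a replicate block, each library left out and, added after seeing the data, a spread pooled over 8 libraries. All members were named, with YWHAG, the 2 genes of each list and the 5 of the window with the smallest p per knockdown, and the 3 genes most like LY6K, LY6E and LYNX1; 1 gene that this rule names is not reported here. Members and lists were chosen with earlier results of these data known.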

Additional observations from a re-analysis of the deposited data

Results flagged for a closer look

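LY6D means lay on opposite sides of their controls in the 2 knockdowns. Its mean was 0.261 RPM higher than in the controls after LY6K-AS knockdown and differed by −0.0580 RPM after YWHAG knockdown, with each pair of knockdown libraries outside the range of its controls. The difference between the log2 changes was 0.27 ± 0.04 (SE) with adjusted p = 0.109 (limma, no minimum), which did not pass the threshold. It rests on 0 to 10 reads per library. In the siRNA table the counting interval of the ratio, 0 to 1.53, includes levels above the controls, so a lower level there is not shown.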

How the results depend on the processing

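With 2 libraries a group, 1 library decided many counts. The number of genes past adjusted p 0.05 after LY6K-AS knockdown was 0, with a range of 0 to 7724 when each library was left out (7724 without the first and 4350 without the second knockdown library, the remaining library being taken to vary as the controls do), and 64 with the spread pooled over 8 libraries, a fit that also held fewer genes (the 12861 past the minimum in both tables). After YWHAG knockdown it was 0, and 214 in that fit. With the pooled spread and no minimum the counts were 182 and 79. The count for the difference was 23, from 0 to 1185 with a library left out (1185 without the first LY6K-AS knockdown library, 718 and 735 without the first and second YWHAG knockdown libraries), and 81 with no minimum. The replicate block gave 0 calls in the LNA table, where same-numbered libraries share only a number (correlation 0.0797). No paired analysis was possible for the siRNA table because its control columns carry other numbers than the labels. voom called 0 genes in both tables.

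The LY6K ratio ranged from 1.38 to 1.84 with a library left out. The members' median in the LNA table was 0.65 and 0.38 at pseudocounts of 0.1 and 0.5, 0.48 over members past the minimum and 0.24 to 0.29 with a library left out. In the siRNA table it was −0.084 at 0.1, 0.37 over members past the minimum and −0.03 to 0.06 with a library left out. Small values changed sign. After YWHAG knockdown the range with a library left out was −0.12 to 0.064 for LNCOC1, −0.10 to 0.077 for LY6K, −0.016 to 0.047 for LYNX1 and −0.12 to 0.15 for PSCA. LY6K was 0.0069 with the GC trend removed and PSCA −0.038 at pseudocount 0.1. The THEM6 difference was −0.015 and −0.0056 at pseudocounts of 0.1 and 0.5 and −0.25 to 0.26 with a library left out. LYPD2, with at most 3 reads a library, and LY6D in the siRNA table and in the difference were not followed across all settings. LYPD2 was 0.11 after LY6K-AS knockdown and −0.062 with the GC trend removed. Of the other values followed 186 kept direction and side, and 9 passed the threshold, each with 1 LY6K-AS knockdown library left out (LYNX1, its difference, LY6E and THEM6 without either, PSCA without the first). The causes were not tested.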
